A study of Bos taurus with 20 samples.

Results

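Transcripts of 44 genes of fatty acid uptake and oxidation were followed in bovine neck muscle. The genes were chosen by name and function, with earlier results of these data known. Each was read from the array probe with the highest mean signal that carried its symbol, older symbols included. All 44 were found on the array, on 51 probes, among 14903 named genes in all. For 43 of them a probe was well above the local background on at least 5 of the 20 arrays and was tested, as were 11398 named genes in all. PPARD, a fatty acid-activated nuclear receptor, was above background on 1 of 20 arrays and was not tested. Of the 44, 37 were above background on all 20 arrays.

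Muscle came from 10 cows at slaughter. The 5 control animals, numbered K3, K6, K8, K9 and K10, are labelled only as controls. The 5 treated animals, numbered DE27, DE29, DE30, DE31 and DE32, had been given dexamethasone, a synthetic glucocorticoid, orally at 0.4 mg a day over 31 days and estradiol, an oestrogen, by intramuscular injection at 5 mg a week in 6 injections. Both agents were given together, so their effects cannot be told apart. From each animal, muscle held under vacuum at 4 °C was sampled at day 0 and at day 14 of storage, which gave 4 groups of 5 arrays. Each array is 1 sample of 1 animal, so the spread between arrays of a group is that between animals. The age and breed of the animals are not given in the sources used here. The day of a sample was taken from its title and its collection-day label, which agree. A free-text note names the other day for 10 samples, the day 14 samples of controls and the day 0 samples of treated animals, and was not used. Values below are listed in the order of animals given above.

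Muscle draws much of its energy at rest from long-chain fatty acids. These are taken up across the cell membrane, activated to acyl-CoA, moved into mitochondria as acylcarnitines by the carnitine shuttle, and shortened in repeated rounds of beta-oxidation, each of which passes electrons to flavoproteins and releases acetyl-CoA for the citric acid cycle. The nuclear receptors of the PPAR family and their coactivator PGC-1alpha drive transcription of many of these genes. The comparison of treated with control animals at each day asks which transcripts carry a trace of the treatment, and that of day 14 with day 0 asks what storage of the meat does to them.

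Signals are processed fluorescence intensities on a log2 scale, set against the 75th percentile of their own array. On the linear scale this percentile was 654 to 936 in control and 716 to 945 in treated animals at day 0, and lower at day 14, at 274 to 533 and 324 to 450. Arrays lay on 6 slides scanned on 3 days, and each slide held arrays of treated and of control animals. Slides 1 and 3 held day 0 arrays only, slides 2 and 4 day 14 arrays only, and slides 5 and 6 both days. Storage day is thus largely confounded with slide. Of 8 skeletal muscle markers 7 were tested and all 7 were above background on every array, with MYLPF not tested. Detection alone does not single out muscle, since all 11 endothelial and all 8 fibroblast markers were also above background on every array. The summed linear signal of the skeletal muscle markers was 645900 to 1503000 over the arrays, and that of 7 smooth muscle markers 16600 to 104700. Differences are given as log2 difference ± SE from limma, with p adjusted over all 15430 tested probes and 0.05 as the threshold.

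At day 0, treated muscle carried more transcript of the fatty acid carrier FABP3 (2.79-fold), the synthetases ACSL5 (2.29-fold) and ACSL1 (1.82-fold), the beta-oxidation enzymes HADHA (1.56-fold) and ECI1 (1.68-fold) and the malonyl-CoA decarboxylase MLYCD (2.31-fold). These 6 of 43 tested members rose and 0 fell. Over all named genes, 1.3% rose and 1.08% fell. The difference lay above 0 for 37 of 43 members, with a median of 0.42, against 5708 of 11398 genes and a median of 0.0003 over all named genes. In 11 members every treated value lay above every control value, and in 0 the reverse, whereas over all named genes 3.07% were separated upward and 2.83% downward. At an unadjusted p under 0.05 there were 21 of 43 members and 1903 of 11398 named genes. In bulk muscle, more cells of a type and more RNA per cell cannot be told apart. The summed linear signal of adipocyte markers was also higher in all 5 treated animals at day 0 (9004 to 12570) than in any control (5343 to 6851). The mean log2 signal of the same markers overlapped, with the lowest treated animal at 7.43 and the highest control animal at 8.36. The part of adipocytes in the result was not tested.

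**Figure D1:**
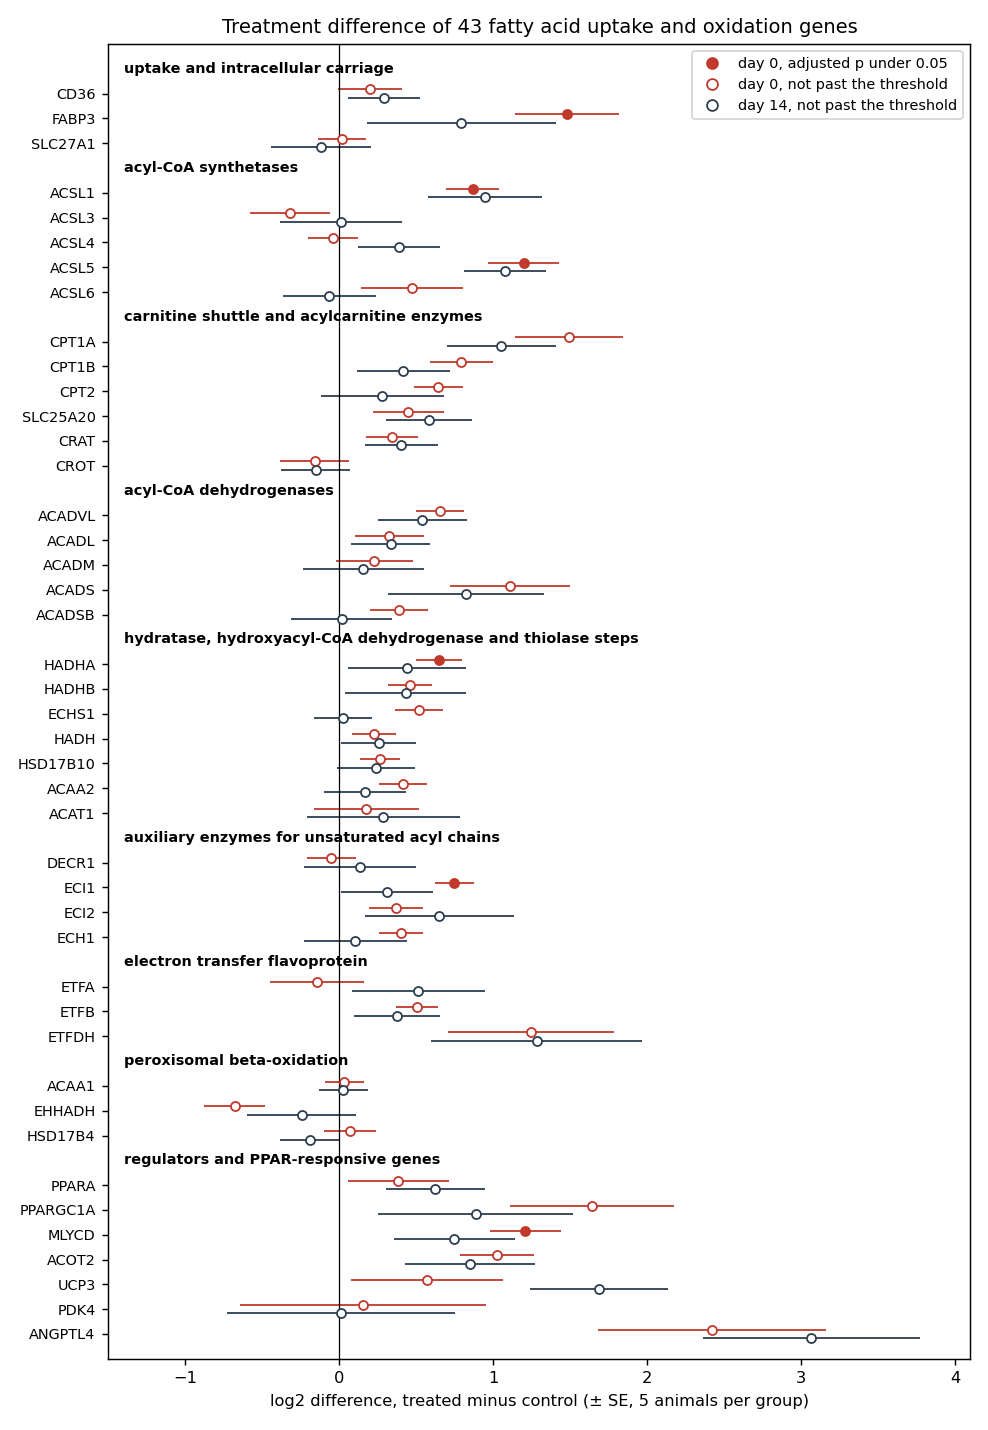
Treatment difference for each of the 43 tested members, grouped by role. The horizontal axis is the log2 difference between treated and control animals with its SE, red for day 0 and dark blue for day 14, and filled points passed the threshold. The 6 filled points are all at day 0 and all right of 0, and 37 members at day 0 and 38 at day 14 lie right of 0. EHHADH was below background in both groups at day 14.

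Among the 3 members of uptake and carriage, FABP3, which carries fatty acids through the muscle cytosol, rose. At day 0 its log2 signal was 13.46, 13.78, 13.79, 13.17 and 12.23 in control and 14.58, 14.66, 15.57, 14.90 and 14.12 in treated animals. All treated values were above all control values, and control animal K10 was the lowest of the 10. The difference was 1.48 ± 0.34 (adjusted p = 0.0465). At day 14 FABP3 read 12.72, 12.51, 14.41, 13.16 and 13.95 in control and 15.62, 14.15, 15.26, 12.19 and 13.49 in treated animals. The groups overlapped, with treated animal DE31 now the lowest of the 10. The day 14 difference was 0.79 ± 0.61 (adjusted p = 0.677).

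CD36, the fatty acid translocase of the cell membrane, read 10.00, 9.40, 9.24, 9.72 and 10.20 in control and 9.73, 9.59, 10.07, 10.23 and 9.93 in treated animals at day 0. The groups overlapped, with the lowest values in K8 and K6. At day 14 CD36 was at 9.94, 9.24, 10.22, 9.97 and 9.59 in control and 10.18, 9.88, 10.37, 10.39 and 9.59 in treated animals, again overlapping. Its differences were 0.20 ± 0.21 at day 0 (adjusted p = 0.691) and 0.29 ± 0.24 at day 14 (adjusted p = 0.691). SLC27A1, a fatty acid transport protein, had 0.02 ± 0.15 and -0.12 ± 0.32, neither past the threshold.

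Of the 5 acyl-CoA synthetases, which activate fatty acids, ACSL5 and ACSL1 rose at day 0. ACSL5 read 9.56, 8.80, 9.65, 9.05 and 9.52 in control and 11.12, 10.51, 10.09, 10.47 and 10.36 in treated animals at day 0. It read 9.94, 10.06, 9.58, 10.16 and 9.54 in control and 11.17, 11.50, 10.30, 10.39 and 11.28 in treated animals at day 14. At both days the lowest treated animal, DE30, was above the highest control animal. The differences were 1.20 ± 0.23 at day 0 (adjusted p = 0.0247) and 1.07 ± 0.27 at day 14 (adjusted p = 0.224), the latter not past the threshold.

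ACSL1 was at 13.80, 13.46, 13.42, 13.33 and 13.86 in control and 14.16, 14.64, 14.16, 14.53 and 14.73 in treated animals at day 0, with no overlap. At day 14 its values were 13.32, 12.90, 13.63, 13.23 and 13.60 in control and 14.97, 14.87, 14.89, 13.13 and 13.58 in treated animals. There DE27, DE29 and DE30 stayed well above the controls, while DE31 and DE32 lay among them. ACSL1 differed by 0.87 ± 0.17 at day 0 (adjusted p = 0.0274) and by 0.95 ± 0.37 at day 14 (adjusted p = 0.422). The other synthetases, ACSL3, ACSL4 and ACSL6, did not pass at either day, with differences of -0.32 ± 0.26, -0.04 ± 0.16 and 0.47 ± 0.33 at day 0.

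In the carnitine shuttle, 5 of 6 members lay above 0 at day 0 and none passed. CPT1A, the isoform of carnitine palmitoyltransferase 1 best known from liver, had the largest difference of the group. Its day 0 values were 8.72, 8.47, 10.01, 9.0 and 10.23 in control and 10.95, 10.50, 10.25, 11.12 and 11.06 in treated animals. The lowest treated animal, DE30, lay just above the highest control, K10. The difference was 1.49 ± 0.35 (adjusted p = 0.0526). At day 14 CPT1A was at 9.71, 9.04, 9.96, 11.19 and 10.24 in control and 10.74, 11.31, 10.68, 11.11 and 11.55 in treated animals. Control animal K9 reached the treated range, and the difference of 1.05 ± 0.35 did not pass (adjusted p = 0.36).

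CPT1B, the muscle isoform of the same enzyme, read 12.37, 12.34, 12.60, 12.15 and 13.02 in control and 13.41, 12.95, 13.69, 13.40 and 12.99 in treated animals at day 0. Only the control animal K10 reached into the treated range. Its difference was 0.79 ± 0.20 (adjusted p = 0.0674), and without K10 it passed (0.92, adjusted p = 0.0449). It did not pass without each of the other 9 animals in turn (adjusted p from 0.084 to 0.164). At day 14 CPT1B values were 12.43, 12.25, 13.08, 12.73 and 12.98 in control and 13.96, 13.16, 13.42, 12.48 and 12.54 in treated animals, overlapping, with a difference of 0.42 ± 0.30 (adjusted p = 0.658). CPT2, which returns the acyl group to CoA inside mitochondria, did not overlap at day 0 and differed by 0.64 ± 0.16 (adjusted p = 0.0597). SLC25A20, the carnitine-acylcarnitine carrier, had 0.45 ± 0.23, CRAT, carnitine acetyltransferase, 0.34 ± 0.17, and CROT, the peroxisomal octanoyltransferase, -0.16 ± 0.22.

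All 5 acyl-CoA dehydrogenases, which open each round of beta-oxidation, lay above 0 at both days and none passed. ACADVL, the enzyme for very long chains, read 15.43, 15.04, 15.31, 14.84 and 14.94 in control and 16.05, 15.64, 15.85, 15.76 and 15.54 in treated animals at day 0. Treated values were all above control values, by a narrow margin between K3 and DE32. The difference was 0.65 ± 0.16 (adjusted p = 0.056), and it passed without K3 (0.73, adjusted p = 0.0465). It did not pass without each of the other 9 animals in turn (adjusted p from 0.0727 to 0.143). At day 14 ACADVL was at 14.88, 14.92, 15.82, 15.72 and 15.76 in control and 16.73, 16.08, 15.91, 15.43 and 15.65 in treated animals. The groups overlapped, and the difference was 0.54 ± 0.29 (adjusted p = 0.557). ACADS, the short-chain enzyme, had 1.11 ± 0.39 at day 0, ACADSB 0.39 ± 0.19, ACADL 0.33 ± 0.22 and ACADM, the medium-chain enzyme, 0.23 ± 0.25.

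Of the 7 members of the hydratase, hydroxyacyl-CoA dehydrogenase and thiolase steps, all lay above 0 at both days, and HADHA rose at day 0. HADHA, the alpha subunit of the mitochondrial trifunctional protein, read 13.03, 13.03, 13.26, 12.93 and 13.44 in control and 13.60, 13.98, 13.71, 14.00 and 13.62 in treated animals at day 0. The treated animals were all higher, with DE27 and K10 closest to each other. HADHA differed by 0.65 ± 0.15 (adjusted p = 0.0495), and its other probe gave 0.76 ± 0.14 (adjusted p = 0.0244). At day 14 the values were 12.66, 12.05, 13.35, 12.46 and 13.17 in control and 14.37, 13.11, 13.49, 12.37 and 12.56 in treated animals. They overlapped, with DE31 and DE32 below the middle control, and the difference of 0.44 ± 0.38 did not pass (adjusted p = 0.71).

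The other 6 of these steps did not pass at day 0. HADHB, the beta subunit of the same complex, had 0.46 ± 0.14 (adjusted p = 0.124) and ECHS1, the short-chain hydratase, 0.52 ± 0.15 without overlap (adjusted p = 0.107). The thiolase ACAA2 had 0.42 ± 0.16, and HADH, HSD17B10 and ACAT1 had 0.23 ± 0.14, 0.27 ± 0.13 and 0.18 ± 0.34. At day 14 the 7 differences ran from 0.02 to 0.44.

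Of the 4 auxiliary enzymes that let unsaturated chains enter the cycle, ECI1, an enoyl-CoA isomerase, rose at day 0. It read 11.29, 11.33, 11.33, 11.35 and 11.40 in control and 12.20, 11.75, 12.19, 12.09 and 12.20 in treated animals. The control animals lay within a very narrow band, and all treated animals were above it, DE29 the least. ECI1 had the smallest adjusted p of the members, with a difference of 0.75 ± 0.13 (adjusted p = 0.0162). At day 14 its values were 11.67, 11.10, 12.67, 12.01 and 11.70 in control and 12.27, 12.43, 12.22, 11.39 and 12.40 in treated animals. Control animal K8 was the highest of all 10 and DE31 was below all but K6, and the difference of 0.31 ± 0.30 did not pass (adjusted p = 0.74). Of the others, ECH1, a dienoyl-CoA isomerase, had 0.40 ± 0.14 at day 0, the isomerase ECI2 0.37 ± 0.17 and the dienoyl-CoA reductase DECR1 -0.05 ± 0.16.

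The electron transfer flavoprotein takes electrons from the acyl-CoA dehydrogenases, and ETFDH hands them to the respiratory chain. ETFDH read 6.70, 7.31, 3.86, 6.86 and 6.05 in control and 7.34, 7.74, 7.47, 7.32 and 7.12 in treated animals at day 0. Control animal K8 was far below all others, K6 reached into the treated range, and treated animals lay close together. At day 14 ETFDH was at 4.90, 3.31, 6.23, 2.77 and 4.65 in control and 7.29, 5.19, 6.39, 5.00 and 4.40 in treated animals, with overlap and with K6 and K9 lowest. Its differences were 1.24 ± 0.54 (adjusted p = 0.267) at day 0 and 1.28 ± 0.68 (adjusted p = 0.553) at day 14. The probe was above background on 18 of 20 arrays. The subunit ETFB had 0.50 ± 0.14 at day 0 without overlap (adjusted p = 0.0814) and ETFA -0.14 ± 0.30.

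None of the 3 peroxisomal members passed. ACAA1, the peroxisomal thiolase, had 0.03 ± 0.13 at day 0 and HSD17B4, a multifunctional enzyme, 0.07 ± 0.17. EHHADH, the peroxisomal bifunctional enzyme, was the member with the lowest difference, -0.68 ± 0.20, which did not pass (adjusted p = 0.105). At day 14 EHHADH was below background in both groups, and ACAA1 and HSD17B4 had 0.03 ± 0.16 and -0.19 ± 0.19.

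All 7 tested regulators and PPAR-responsive genes lay above 0 at both days, and MLYCD rose at day 0. MLYCD removes malonyl-CoA, the inhibitor of carnitine palmitoyltransferase 1. At day 0 it was at 10.72, 10.19, 11.07, 10.49 and 11.29 in control and 11.73, 11.70, 11.77, 12.33 and 12.27 in treated animals, and the groups did not overlap. At day 14 MLYCD read 10.65, 9.15, 11.15, 11.34 and 11.47 in control and 11.69, 11.21, 11.89, 11.39 and 11.30 in treated animals. K6 was lowest, K3 and K8 were also below all treated animals, and K9 and K10 lay among them. The differences were 1.21 ± 0.23 at day 0 (adjusted p = 0.0247) and 0.75 ± 0.39 at day 14 (adjusted p = 0.545).

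ANGPTL4, a secreted inhibitor of lipoprotein lipase, had the largest difference of all members at both days. Its day 0 values were 9.37, 7.28, 11.02, 10.78 and 12.26 in control and 12.43, 12.77, 12.20, 12.49 and 12.91 in treated animals. Its day 14 values were 9.34, 7.01, 9.99, 11.34 and 11.61 in control and 12.71, 13.01, 12.86, 12.85 and 13.19 in treated animals. Treated animals lay within a band of less than 1 log2 unit at each day, whereas controls spread widely, and K10 alone reached the treated level at day 0 and none at day 14. With 2.42 ± 0.74 at day 0 (adjusted p = 0.118) and 3.07 ± 0.71 at day 14 (adjusted p = 0.183), neither difference passed.

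PPARGC1A, which encodes PGC-1alpha, read 10.32, 10.68, 11.17, 10.31 and 10.27 in control and 13.21, 12.61, 9.90, 12.47 and 12.77 in treated animals at day 0. In treated animals 4 values were above every control value, and DE30 was below all controls. At day 14 PPARGC1A was at 10.22, 10.53, 11.49, 12.13 and 11.96 in control and 13.18, 13.84, 12.26, 10.42 and 11.05 in treated animals, with DE31 among the low controls. The day 0 difference of 1.64 ± 0.53 did not pass (adjusted p = 0.137), but passed without DE30 (2.22, adjusted p = 0.00302). It did not pass without each of the other 9 animals in turn (adjusted p from 0.159 to 0.263). At day 14 it was 0.89 ± 0.63 (adjusted p = 0.657).

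UCP3, a mitochondrial carrier protein of muscle, read 11.04, 10.33, 10.70, 11.35 and 12.71 in control and 12.39, 11.86, 10.51, 11.48 and 12.73 in treated animals at day 0, with overlap. At day 14 it read 10.84, 9.58, 8.66, 10.16 and 11.04 in control and 11.83, 10.86, 12.46, 12.08 and 11.49 in treated animals. Of the day 14 values, only DE29 lay within the control range. Its differences were 0.57 ± 0.49 (adjusted p = 0.616) and 1.69 ± 0.45 (adjusted p = 0.258). PDK4, the kinase that turns off pyruvate dehydrogenase, was at 10.67, 8.27, 12.50, 10.79 and 12.94 in control and 11.35, 11, 9.69, 12.20 and 11.70 in treated animals at day 0. At day 14 PDK4 was at 10.37, 7.73, 11.61, 11.76 and 12.30 in control and 11.04, 9.65, 11.48, 10.88 and 10.77 in treated animals. Control animals varied more than treated ones, with K6 lowest at both days and K10 highest, and PDK4 differed by 0.16 ± 0.80 and 0.01 ± 0.74.

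ACOT2, a mitochondrial acyl-CoA thioesterase, was at 7.29, 7.81, 7.05, 7.05 and 6.88 in control and 8.12, 7.96, 8.53, 8.83 and 7.76 in treated animals at day 0. The groups met only at K6 and DE32. At day 14 ACOT2 read 5.88, 4.96, 6.75, 5.59 and 6.71 in control and 7.93, 6.58, 7.21, 6.07 and 6.35 in treated animals, and overlapped. Its difference was 1.03 ± 0.24 at day 0 (adjusted p = 0.0516) and 0.85 ± 0.42 at day 14 (adjusted p = 0.516). PPARA, the nuclear receptor, had 0.38 ± 0.33 and 0.62 ± 0.32.

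**Figure D2:**
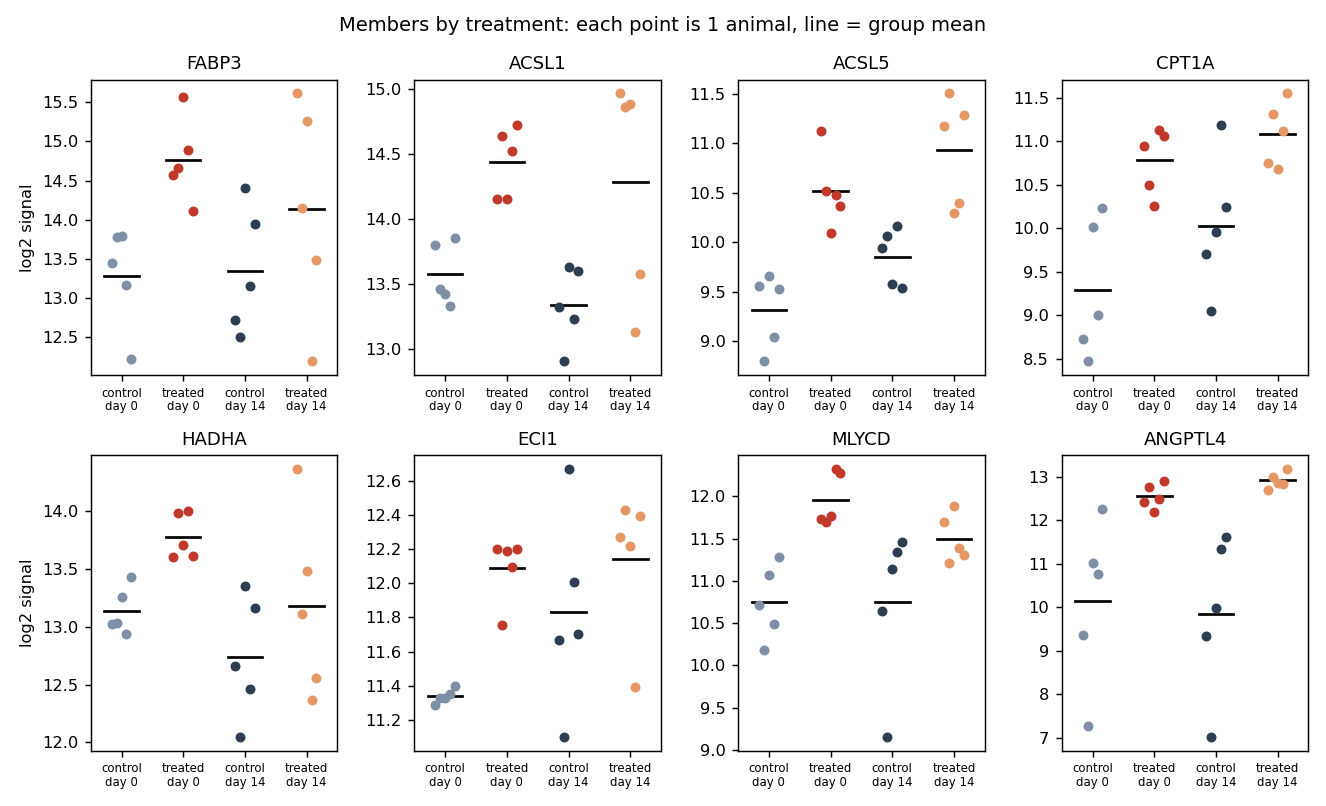
Log2 signal of 8 members in every animal. Each panel is 1 gene, each point 1 animal and each line the mean of a group of 5. The treated day 0 points of FABP3, ACSL1, ACSL5, CPT1A, HADHA, ECI1 and MLYCD sit above all control day 0 points, and ANGPTL4 treated points are close together beside widely spread controls.

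The 6 calls at day 0 differed in how far they depended on single animals. ECI1 passed without each of the 10 animals in turn (adjusted p from 0.0167 to 0.0487). ACSL5 did not pass without K9, DE29 or DE31 (0.0522 to 0.0710), MLYCD not without K9, DE31 or DE32 (0.0548 to 0.0710), and ACSL1 not without K6, K8, K9, DE29, DE31 or DE32 (0.0617 to 0.0790). FABP3 passed in 1 of 10 such fits, that without DE32, and HADHA in 1, that without K10, and their adjusted p ran from 0.0584 to 0.115 and from 0.0556 to 0.133 without each of the others. FABP3 and HADHA also did not pass with quantile normalization (adjusted p = 0.0588 and 0.0672), in the authors' series table (0.0604 and 0.0618) or with no filter on dim probes (0.0703 and 0.0912). The number of members that rose was 3 without K8, 1 without K9, 2 without DE29 and 1 without DE31, and 4 to 7 without each of the others. When all 20 arrays were fitted together with the animal as a random replicate block, 2 members rose, ACSL5 (adjusted p = 0.0207) and CPT1A (adjusted p = 0.0487), while FABP3, ACSL1, HADHA, ECI1 and MLYCD had adjusted p of 0.190, 0.174, 0.368, 0.131 and 0.0845.

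Within the 3 slides that held both treatments at day 0, the median difference of the members was 0.41, 0.55 and 0.35, and 33 to 35 of 43 were above 0. All 6 members that rose had the same sign within each of these slides, which was fixed in advance because their groups did not overlap. With the slide as a block, ACSL1 (adjusted p = 0.0540), MLYCD (0.0552) and HADHA (0.0855) did not pass, nor did HADHA with the scan day as a block (0.0655). Scan days 2 and 3 gave medians of 0.55 and 0.35. Set against the control mean of day 0, the median over the 43 members was 0.33 to 0.65 on the 5 treated arrays of day 0 and -0.02 to 0.05 on the control arrays that made that mean.

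After 14 days of storage, 0 members passed between treated and control animals in either direction. An unadjusted p under 0.05 was found for 5 of 43 members, namely ANGPTL4, ACSL5, UCP3, CPT1A and ACSL1. Over all named genes it was found for 1140 of 11398, a similar share. Over all named genes limma called 0.0263% higher and 0.0351% lower, so few passed of any kind. The difference was above 0 for 38 of 43 members with a median of 0.37, against 6389 of 11398 genes and a median of 0.05 over all. ANGPTL4 and ACSL5 were separated upward without overlap and 0 members downward, against 1.16% and 1.11% of all named genes. Treated animals fell into a wide range at day 14: the median over members, relative to the day 0 control mean, was 0.69 in DE27 and 0.30 in DE30 but -0.03 in DE29, -0.23 in DE32 and -0.45 in DE31. Control animals were at 0.12 in K8, 0.01 in K10, -0.36 in K3, -0.40 in K9 and -0.78 in K6.

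The day 14 shift was not alike in all batches. Slide 2, with DE27, DE29 and K6, gave a member median of 1.34 with 38 above 0, and slide 4, with DE30, DE31 and K9, gave 0.40 with 34 above 0. Slide 5, with DE32 and K10, gave -0.36 with 8 of 43 above 0. Over scan day 2 the median was 0.10 with 25 above 0. The array of K6 had the lowest 75th percentile of all 20 arrays, 274, and without K6 the median was 0.24, while without DE27 it was 0.19. The part of array signal in this result was not tested.

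**Figure D3:**
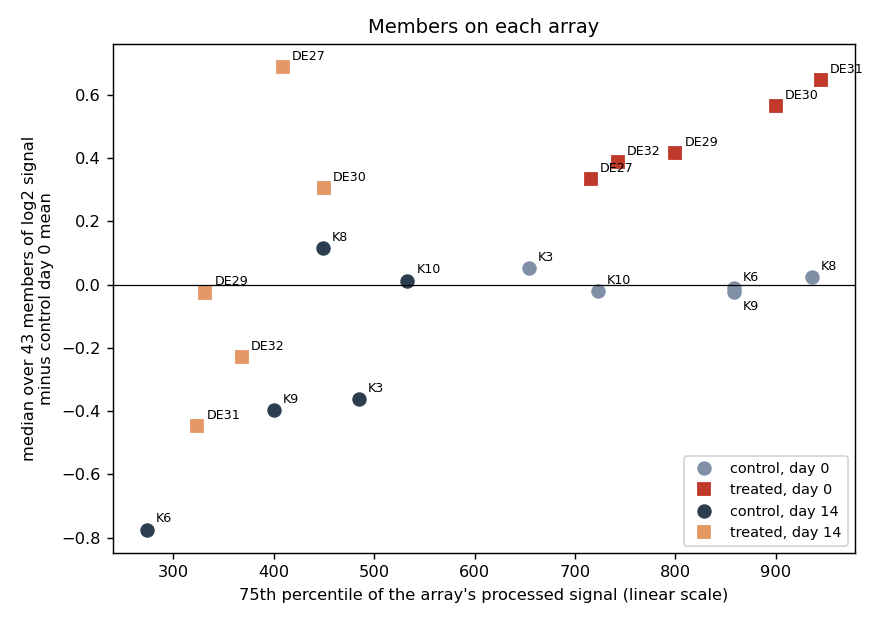
Median over the 43 tested members of log2 signal minus the control day 0 mean (vertical axis) against the 75th percentile of processed signal (horizontal axis, linear), 1 point per array. At day 0 all 5 treated arrays lie above all 5 control arrays, which are near 0 by construction, and at day 14 both groups spread between -0.78 and 0.69 at lower array signal.

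Averaged over the 2 days of each animal, 5 members rose in treated animals and 0 fell, against 1.32% and 1.84% of all named genes. They were ACSL5 (1.14 ± 0.18, adjusted p = 0.00878), ACSL1 (0.91 ± 0.19, adjusted p = 0.0247), ACOT2 (0.94 ± 0.20, adjusted p = 0.0303), CPT1A (1.27 ± 0.28, adjusted p = 0.0354) and ETFDH (1.26 ± 0.28, adjusted p = 0.0368). ANGPTL4 was at 2.74 ± 0.70 (adjusted p = 0.0571) and ACADS at 0.97 ± 0.24 (adjusted p = 0.0541). The day 0 calls FABP3, ECI1, MLYCD and HADHA did not pass over both days, with adjusted p of 0.107, 0.104, 0.0717 and 0.181. The median over members was 0.37, with 38 of 43 above 0, against 0.02 over all named genes. These averages hold the day 0 arrays as well and are not a repeat of that comparison.

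ACSL5 alone of these 5 passed without each animal in turn (adjusted p from 0.00841 to 0.0279). The count was 3 without K3 or K8, 1 without K9 or DE27 and 2 without DE29 or DE30, and 4 to 6 without each of the others. With the slide as a block, ACSL1 (adjusted p = 0.0649) and ETFDH (0.0722) did not pass. ETFDH also did not pass with the scan day as a block (0.0623), whereas ANGPTL4 passed with each block (0.0204 and 0.00265). These block fits were made on single arrays, not on averages per animal. Whether the block or that change of model moved these calls was not tested. With normexp background correction, ETFDH had 0.52 (adjusted p = 0.634), ACOT2 0.58 (adjusted p = 0.261) and ACSL1 0.98 (adjusted p = 0.0634), none of which passed, and ANGPTL4 had 2.51 and passed (adjusted p = 0.0445). ANGPTL4 also passed without K6 (2.03, adjusted p = 0.0325) and without K10 (3.23, adjusted p = 0.0352). It passed in none of the other 8 such fits (adjusted p from 0.0788 to 0.114). UCP3 passed without K10 (1.44, adjusted p = 0.0352) and in none of the other 9 fits (adjusted p from 0.14 to 0.215).

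After 14 days of storage, muscle of control and of treated animals carried less transcript of the flavoprotein subunit ETFA, the auxiliary enzymes DECR1 and ECH1, the beta-oxidation enzymes HADHB and HADH, the peroxisomal EHHADH, not detected at day 14, and the thioesterase ACOT2. In controls 11 of 43 members fell and 1 rose, where 18.9% of all named genes fell and 18.8% rose. In treated animals 9 members fell and 0 rose, where 12.9% fell and 14.5% rose. The median over members was -0.28 in control and -0.34 in treated animals, with 27 and 31 of 43 below 0, against 0.03 and 0.04 over all named genes. Separation without overlap was downward in 7 and 5 members and upward in 0 and 0, against 13.2% and 8.61% downward and 10.6% and 9.78% upward over all. Since centring sets each array against its own 75th percentile, these are changes relative to other transcripts, while the array signal itself was lower at day 14 in both groups. Only slides 5 and 6 held arrays of both days, so storage and slide cannot be fully told apart.

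The falls were shared by 7 members, ACOT2, DECR1, ECH1, EHHADH, ETFA, HADH and HADHB, which are 63.6% of those that fell in control and 77.8% of those that fell in treated animals. Over all named genes the shared 1237 are 57.4% and 84.4% of the genes that fell in each.

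**Figure D4:**
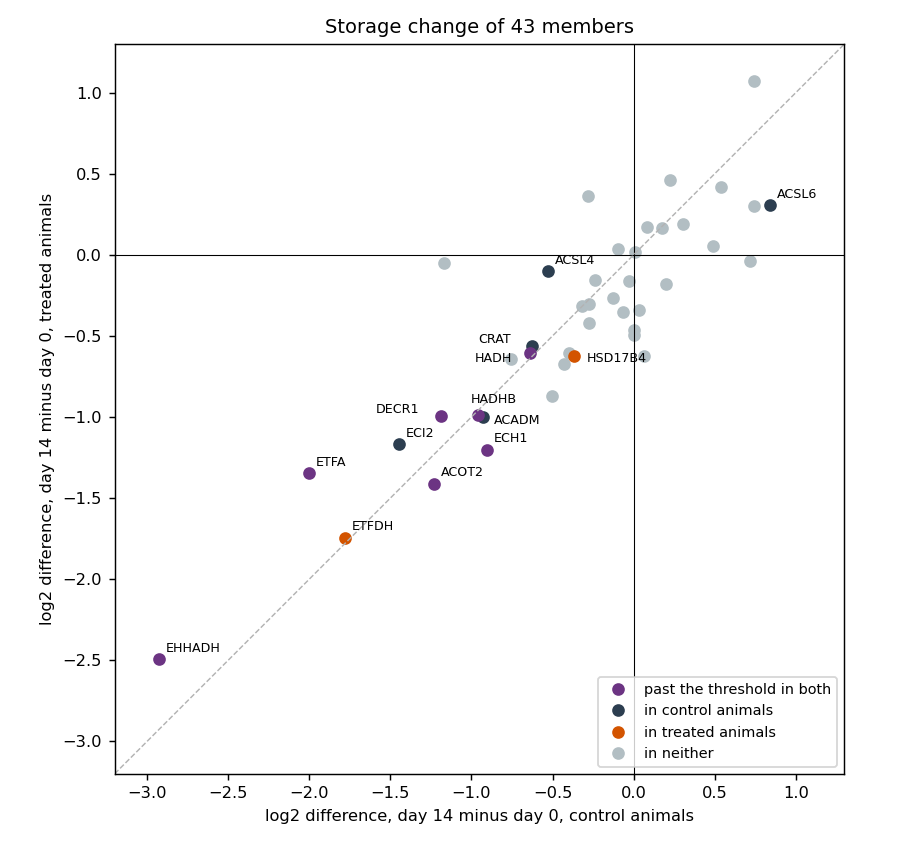
Storage change of the 43 tested members in control animals (horizontal axis) and treated animals (vertical axis), as log2 difference between day 14 and day 0, with the dashed line marking equal change. The 7 members past the threshold in both lie at the lower left, EHHADH farthest out, where its day 14 signal was below background.

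EHHADH went from detected to not detected. It read 5.78, 6.19, 5.87, 6.03 and 6.38 at day 0 and 3.37, 3.07, 3.04, 2.15 and 3.99 at day 14 in control animals. In treated animals it read 5.80, 5.25, 5.52, 4.79 and 5.50 at day 0 and 3.65, 2.42, 2.84, 2.26 and 3.23 at day 14. Every animal was lower at day 14, and the probe was above background on all 10 arrays of day 0 and on none of day 14. EHHADH changed by -2.93 ± 0.29 in control (adjusted p = 0.00031) and -2.49 ± 0.29 in treated animals (adjusted p = 0.000258), with undetected values at day 14. Each day 14 array was also set to its dimmest detected signal, or to its EHHADH reading where that was higher. The falls were then 5.98-fold and 3.81-fold. These are not strict lower bounds: K10 was not detected at 3.99, although the dimmest detected signal of that array was 3.34. EHHADH entered the test only through its day 0 arrays, where it was high, so its fall was favoured by the filter on dim probes. Without EHHADH, 10 members fell in controls, 8 in treated animals and 6 in both. Normexp background correction with an offset of 50 moved the median storage change over all named genes from 0.03 to 0.33 in controls and from 0.04 to 0.32 in treated animals. With it, the values of EHHADH were 0.03 and 0.58 and neither passed. HSD17B4, the other large peroxisomal enzyme, read 10.84, 10.81, 10.91, 10.94 and 11.51 at day 0 and 10.64, 10.17, 11.12, 10.55 and 10.70 at day 14 in control animals.

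In treated animals HSD17B4 was at 11.34, 10.79, 11, 11.17 and 11.04 at day 0 and 10.69, 10.34, 10.33, 10.40 and 10.46 at day 14. All 5 treated animals were lower at day 14 without overlap, and so were 4 of 5 controls, with overlap. HSD17B4 fell in treated animals (-0.63 ± 0.16, adjusted p = 0.0144) and had -0.37 ± 0.21 in controls (adjusted p = 0.174).

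ETFA, the alpha subunit of the flavoprotein, read 11.83, 12.08, 11.68, 11.92 and 11.36 at day 0 and 10.11, 8.74, 10.12, 9.13 and 10.75 at day 14 in control animals. In treated animals it was at 10.46, 12.18, 12.00, 11.99 and 11.53 at day 0 and 11.18, 10.09, 10.85, 9.95 and 9.35 at day 14. All 5 controls were lower without overlap, as were 4 treated animals, while DE27 was low at day 0 and higher at day 14. ETFA changed by -2.0 ± 0.35 in control (adjusted p = 0.0019) and -1.35 ± 0.40 in treated animals (adjusted p = 0.0263). ETFDH, with the values given above, had -1.74 ± 0.46 in treated animals, lower in 5 of 5 (adjusted p = 0.0163), but with normexp correction it had -0.25 and did not pass (adjusted p = 0.452). In controls it had -1.78 ± 0.73, lower in 4 of 5 (adjusted p = 0.0735), with K8 the exception. ETFB, the beta subunit, had -0.03 ± 0.18 and -0.16 ± 0.25, neither past the threshold.

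Among the auxiliary enzymes, ECI2 read 10.53, 10.40, 10.25, 10.44 and 10.30 at day 0 and 8.91, 8.35, 9.55, 8.07 and 9.79 at day 14 in control animals. In treated animals ECI2 was at 10.35, 10.87, 10.79, 11.26 and 10.49 at day 0 and 10.95, 9.54, 10.13, 8.86 and 8.44 at day 14. All controls were lower at day 14 without overlap, and 4 of 5 treated animals were lower, DE27 excepted. ECI2 changed by -1.45 ± 0.31 in control (adjusted p = 0.00469) and -1.17 ± 0.42 in treated animals (adjusted p = 0.0544).

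ECH1 was at 11.06, 10.91, 10.91, 11 and 11.24 at day 0 and 10.07, 9.73, 10.49, 9.75 and 10.54 at day 14 in control animals. In treated animals it was at 11.65, 11.45, 11.58, 11.07 and 11.37 at day 0 and 10.95, 10.02, 11, 9.52 and 9.61 at day 14. All 10 animals had less ECH1 at day 14, and the days did not overlap in either group. ECH1 changed by -0.91 ± 0.20 in control (adjusted p = 0.00536) and -1.20 ± 0.31 in treated animals (adjusted p = 0.0141).

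DECR1 read 10.26, 10.68, 10.42, 10.64 and 10.27 at day 0 and 9.17, 8.60, 9.70, 8.74 and 10.13 at day 14 in control animals. In treated animals DECR1 read 10.25, 10.18, 10.37, 10.82 and 10.39 at day 0 and 10.28, 8.69, 9.71, 9.42 and 8.93 at day 14. The values went down in 5 of 5 controls and 4 of 5 treated animals, with DE27 level. DECR1 changed by -1.19 ± 0.28 (adjusted p = 0.00785) and -1.0 ± 0.28 (adjusted p = 0.0226). ECI1, unlike these 3, had 0.49 ± 0.25 and 0.05 ± 0.22, neither past the threshold.

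Of the core steps, HADHB read 6.65, 6.46, 6.63, 6.48 and 6.67 at day 0 and 5.56, 4.66, 6.10, 5.65 and 6.13 at day 14 in control animals. In treated animals HADHB was at 6.67, 6.97, 7.33, 7.15 and 7.08 at day 0 and 7.08, 5.90, 6.60, 5.12 and 5.55 at day 14. The probe was above background on 19 of 20 arrays. Controls did not overlap between days, and DE27 was the 1 treated animal not lower at day 14. HADHB changed by -0.96 ± 0.26 (adjusted p = 0.0134) and -0.99 ± 0.34 (adjusted p = 0.0446). Its partner HADHA had -0.40 ± 0.24 and -0.60 ± 0.33 and did not pass, and with normexp correction HADHB had 0.23 and 0.13.

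HADH, the dehydrogenase of medium and short chains, was at 10.08, 9.91, 9.79, 10.27 and 10.13 at day 0 and 9.55, 8.82, 9.82, 9.04 and 9.78 at day 14 in control animals. In treated animals HADH was at 10.37, 10.13, 10.03, 10.40 and 10.38 at day 0 and 9.91, 9.69, 9.94, 9.53 and 9.21 at day 14. The values went down in 4 of 5 controls, K8 excepted, and in all treated animals without overlap. HADH changed by -0.64 ± 0.22 (adjusted p = 0.0379) and -0.61 ± 0.18 (adjusted p = 0.0293). In controls it had -0.30 with normexp correction and did not pass (adjusted p = 0.312), and in treated animals it did not pass with the scan day as a block (adjusted p = 0.0544).

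ACADM read 11.41, 11.20, 11.32, 11.52 and 10.59 at day 0 and 10.34, 9.31, 10.98, 10.02 and 10.76 at day 14 in control animals. In treated animals ACADM was at 10.66, 11.86, 11.77, 11.52 and 11.38 at day 0 and 11.29, 10.28, 11.11, 9.85 and 9.66 at day 14. In each group 4 animals were lower at day 14 and 1, K10 or DE27, was higher. ACADM changed by -0.93 ± 0.31 in control (adjusted p = 0.0328) and had -1.0 ± 0.35 in treated animals (adjusted p = 0.0522). The acyl-CoA dehydrogenase for very long chains, ACADVL, had 0.31 ± 0.23 and 0.19 ± 0.24.

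ACOT2, with values given above, was lower at day 14 in all 10 animals, by -1.23 ± 0.34 in control (adjusted p = 0.015) and -1.41 ± 0.35 in treated animals (adjusted p = 0.0117). Its values with normexp correction were -0.09 and -0.59, and neither passed. The remaining calls in controls were CRAT (-0.62 ± 0.21, adjusted p = 0.0387) and ACSL4 (-0.53 ± 0.18, adjusted p = 0.0366), which fell, and ACSL6 (0.84 ± 0.28, adjusted p = 0.0341), which rose. ACSL6 was above background on 16 of 20 arrays. Uptake genes and carnitine palmitoyltransferases showed no call with storage: FABP3 had 0.07 ± 0.41 and -0.62 ± 0.57, CD36 0.08 ± 0.24 and 0.17 ± 0.21, CPT1A 0.74 ± 0.43 and 0.30 ± 0.24, and CPT1B 0.20 ± 0.22 and -0.18 ± 0.29. CPT2 was lower at day 14 without a call, with means of 10.53 and 10.03 at day 0 and day 14 in control and 11.17 and 10.31 in treated animals. Among regulators, PPARGC1A had 0.72 ± 0.37 and -0.04 ± 0.74, PDK4 -0.28 ± 0.98 and -0.42 ± 0.46, ANGPTL4 -0.28 ± 1.0 and 0.36 ± 0.18, and UCP3 -1.17 ± 0.51 and -0.05 ± 0.42.

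**Figure D5:**
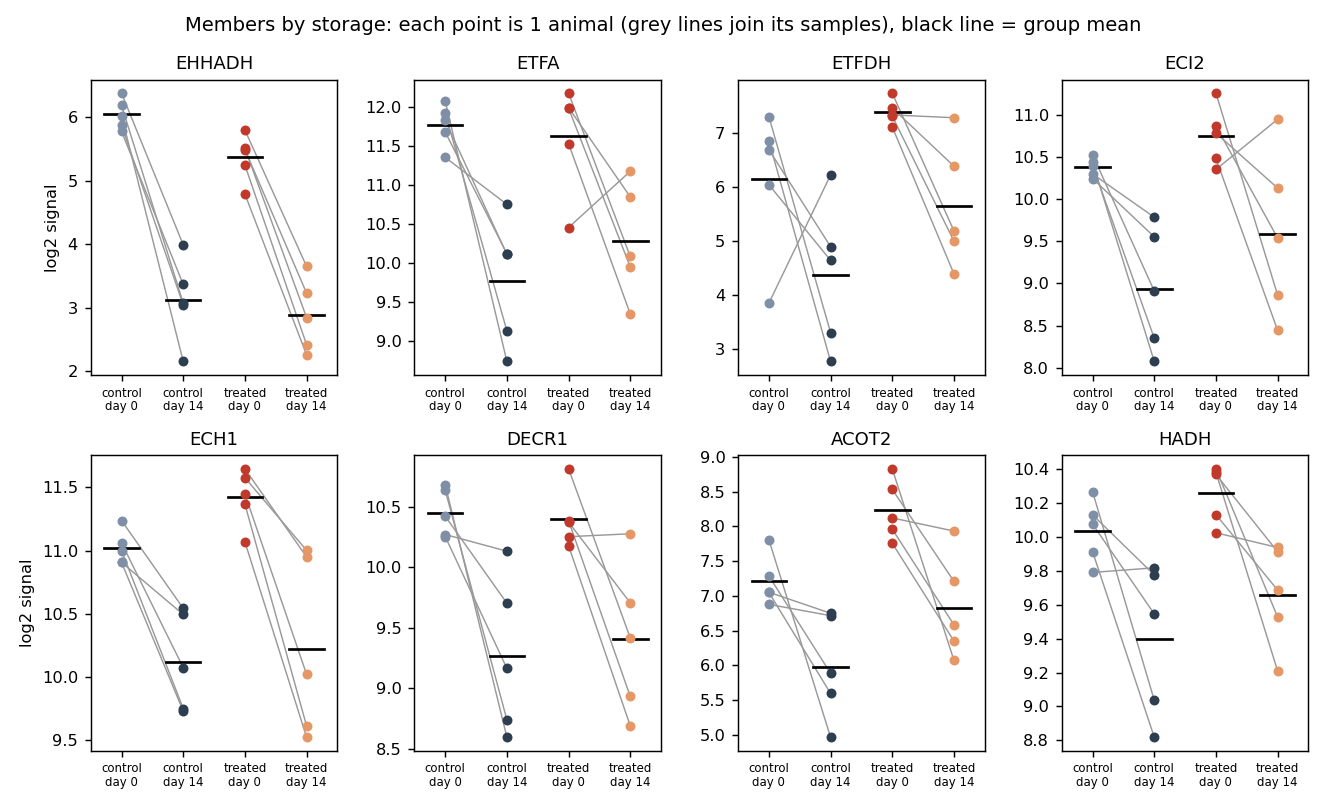
Log2 signal of 8 members at day 0 and day 14 in control and treated animals. Grey lines join the samples of 1 animal and black lines are group means of 5. EHHADH, ECH1 and ACOT2 go down in all 10 animals, and the line of DE27 runs level or upward for ETFA, ECI2 and DECR1.

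Some members have probes that disagreed over storage. A dimmer CD36 probe fell in both groups (-1.08 ± 0.39, adjusted p = 0.0473, and -0.79 ± 0.26, adjusted p = 0.0365), whereas the brighter one used here did not. A dimmer ACADSB probe fell likewise (-1.04 ± 0.32 and -1.36 ± 0.21, adjusted p = 0.0255 and 0.00105), with 0.03 ± 0.27 and -0.34 ± 0.27 on the brighter one. The dimmer HADHA probe had -0.66 ± 0.31 and -1.04 ± 0.35 (adjusted p = 0.111 and 0.0455). The dimmer ACSL3 probe had -0.59 ± 0.47 and -1.58 ± 0.41 (adjusted p = 0.334 and 0.0153), opposite in sign to the brighter one (0.74 ± 0.28 and 1.07 ± 0.38).

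With the animal as a replicate block, which pairs the days of an animal, ACADM (adjusted p = 0.0523), ACSL4 (0.0558) and HADH (0.0622) no longer passed in controls, and UCP3 (-1.17, adjusted p = 0.0187) and ACSL3 (0.74, adjusted p = 0.0189) did. In treated animals ETFA (0.0570), HADHB (0.0697) and HADH (0.0706) no longer passed with that block. The count of falls in controls was 6 without K3 or K6 and 4 without K9, and that in treated animals was 14 without DE27, 3 without DE29, 6 without DE30 and 2 without DE31 or DE32. EHHADH passed without each animal in turn in both groups, and ETFA, ECI2 and ECH1 did so in controls. Of the 5 such fits in controls, DECR1 passed in 4 (not without K9), HADHB in 3 (not without K3 or K9), ACADM, ACOT2 and HADH in 2 (not without K3, K6 or K9), and ACSL4, ACSL6 and CRAT in 1, those without K3, K8 and K10 in this order. In treated animals ACOT2 passed in 4 (not without DE31), ECH1 in 3 (not without DE29 or DE32), ETFDH and HADH in 2 (not without DE29, DE31 or DE32), HSD17B4 in 2 (not without DE30, DE31 or DE32), and DECR1, ETFA and HADHB in 1, that without DE27. HADHA fell in treated animals without DE27 (-0.95, adjusted p = 0.0200) and passed in none of the other 4 fits (adjusted p from 0.24 to 0.53). A slide as a fixed block leaves slide 6 alone to carry the storage comparison in controls and slide 5, with DE32, in treated animals, and 1 and 0 members fell in that fit. Within scan days the members' median was -0.82, -0.22 and -0.26 in controls and, on scan days 1 and 2, -0.06 and -0.55 in treated animals.

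Whether storage acted differently in treated animals was tested as the difference between the changes of the groups. For 0 of 43 members did it pass, with 0% of all named genes higher and 0% lower in limma. At an unadjusted p under 0.05 there was 1 member, ECHS1 (-0.50 ± 0.23, adjusted p = 1), and 382 genes in all. The largest positive difference was that of UCP3 (1.12 ± 0.70), lower at day 14 in 5 of 5 controls, and the lowest was that of PPARGC1A (-0.76 ± 0.88). ETFA had 0.66 ± 0.56, and the median over members was -0.07. A p that misses the threshold does not show that the groups changed alike: HADHA, for example, had -0.21 ± 0.43 and FABP3 -0.69 ± 0.75.

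Genes around the pathway, chosen like the members with earlier results known, were also counted. Their counts are to be read against all named genes, of which 1.3% rose and 1.08% fell at day 0. Over both days 1.32% rose and 1.84% fell. Of 77 other genes of fatty acid handling, 61 were tested, and 4 rose and 0 fell at day 0, with a median of 0.21: FABP5, a fatty acid carrier (1.62 ± 0.15, adjusted p = 0.00152), ACOX2, a peroxisomal acyl-CoA oxidase (1.80 ± 0.19, adjusted p = 0.00227), PLIN2, a lipid droplet coat protein (1.09 ± 0.17, adjusted p = 0.0134), and SIRT3, a mitochondrial deacylase (0.93 ± 0.18, adjusted p = 0.0254). The lipases LPL (0.15 ± 0.29) and PNPLA2 (0.15 ± 0.20), the droplet protein PLIN5 (0.77 ± 0.22), the receptor ESRRA (0.56 ± 0.16) and ACACB, which makes malonyl-CoA at mitochondria (-0.13 ± 0.27), did not pass. Of 22 tested citric acid cycle genes 4 rose at day 0, with 18 above 0 and a median of 0.47: CS, citrate synthase (0.65 ± 0.12, adjusted p = 0.0227), IDH3B (0.69 ± 0.13, adjusted p = 0.0215), SDHA (0.58 ± 0.12, adjusted p = 0.0313) and DLAT (0.73 ± 0.15, adjusted p = 0.0303). At day 14, 0 genes of both lists passed, with medians of 0.25 and 0.43. Over both days 3 rose of the former, FABP5 (1.51 ± 0.19), PLIN2 (0.76 ± 0.18) and the AMP kinase subunit PRKAG2 (1.29 ± 0.18), and of the latter CS (0.62 ± 0.15) and DLAT (0.67 ± 0.14). 

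With storage, 11 of the 61 other fatty acid handling genes rose and 14 fell in controls, and 8 rose and 7 fell in treated animals, where 18.8% and 18.9% of all named genes rose and fell in controls and 14.5% and 12.9% in treated animals. Apart from the falls in controls, these counts are near those shares. Those that rose with the smallest p in controls were NRF1, a factor for mitochondrial genes (1.15 ± 0.20), the acetyl-CoA carboxylases ACACA (0.80 ± 0.14) and ACACB (1.82 ± 0.36), FABP5 (1.18 ± 0.24) and the transporter SLC27A4 (0.75 ± 0.15). In treated animals they were ACACB (1.58 ± 0.24), the receptor ESRRB (1.70 ± 0.31), ACAD10 (1.0 ± 0.20), SLC27A4 (0.96 ± 0.20) and the thioesterase ACOT8 (1.02 ± 0.21). The falls led with RXRG, a partner receptor of PPARs, in both groups (-1.73 ± 0.29 and -1.53 ± 0.31), and with SCP2, a peroxisomal thiolase and lipid carrier (-0.99 ± 0.18 and -1.14 ± 0.24). Of the 22 citric acid cycle genes, 2 rose and 9 fell in controls and 2 rose and 4 fell in treated animals, to be read against the same shares. PDHA1 and OGDH rose in both groups (0.73 ± 0.15 and 0.87 ± 0.25, 0.61 ± 0.20 and 0.87 ± 0.26), while IDH3A (-1.62 ± 0.43 and -1.71 ± 0.42) and SDHC (-0.92 ± 0.26 and -1.15 ± 0.31) fell in both. CS had -0.10 ± 0.20 and -0.16 ± 0.23, PNPLA2 0.20 ± 0.17 and 0.49 ± 0.27, and LPL -0.35 ± 0.33 and -0.73 ± 0.36.

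Markers of other cell types moved with some of these results. Of 10 tested adipocyte markers 9 were above 0 at day 0, and DGAT2 (2.90 ± 0.28) and CIDEA (0.94 ± 0.16) rose, while FABP4 had 0.45 ± 0.84, and LEP and PLIN4 were not tested. The summed linear signal of the adipocyte list, given above for day 0, was 6494 to 7452 in control and 4455 to 15110 in treated animals at day 14. There 5 of 10 adipocyte markers were above 0 (median -0.10, 0 called). Endothelial markers were above 0 at day 0 for 11 of 11 with 0 called, with sums of 16750 to 23180 and 21840 to 29980. At day 14, 5 of 11 endothelial markers were above 0 (median -0.05, 0 called). Skeletal muscle markers were below 0 for 5 of 7 at day 0 (median -0.49, 0 called, 2 separated downward), with sums of 846000 to 1029000 in control and 645900 to 954500 in treated animals, and above 0 for 6 of 7 at day 14 (median 0.49, 0 called), with sums of 765700 to 1065000 and 1052000 to 1503000. Fast fibre markers were below 0 for 6 of 8 at day 0 (median -0.41, 0 called), with sums of 750300 to 1133000 and 695900 to 949500. At day 14, 7 of 8 fast fibre markers were above 0 (median 0.31, 0 called). Nerve markers were below 0 for 4 of 4 at both days (medians -0.74 and -0.80, 0 called), with day 0 sums of 5704 to 9943 and 3946 to 9098. Slow oxidative fibre markers were above 0 for 4 of 8 at day 0, with sums of 827500 to 1073000 in control and 761100 to 1063000 in treated animals. At day 14, 8 of 8 fibroblast and 7 of 7 smooth muscle markers were below 0 in treated animals with 0 called, with fibroblast sums of 20410 to 101600 in control and 10200 to 43740 in treated animals. With storage, 8 of 11 endothelial markers rose in controls and 5 in treated animals, and 6 of 7 and 0 of 7 smooth muscle markers. Over all named genes 18.8% rose in controls and 14.5% in treated animals. Of 8 fibroblast markers 3 fell and 0 rose in each group, where 18.9% and 12.9% of all named genes fell. The part of these cell and fibre types in the members' results was not tested.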

How the data were processed

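Total RNA from 20 neck muscle samples was labelled with Cyanine 3 and hybridised to Agilent bovine arrays, per the labels. Per the file headers, the deposited files hold Feature Extraction 9.5.1.1 output, in which processed signal is an intensity that the software had background-subtracted and detrended, and other columns flag outlier spots and spots well above background. The authors' series table holds linear intensity on the same arrays, with normalization between arrays unstated. The submitters' processing notes name R 2.11.1.

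Control spots (1417) and outlier spots (935 over all arrays) were left out, spots of a probe were averaged, and log2 of the deposited intensity was centred on each array's 75th percentile. The mean percentile was added back. Probes well above background on at least 5 of 20 arrays (15430 of 21475) were tested with limma 3.58.1 (lmFit, eBayes, Benjamini-Hochberg) in R 4.3.3. Genes were named through accession, gene number or a symbol in the file's description, and of the 44 members 20, 16 and 8 were named by these routes. Each gene was read from its brightest tested probe.

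The members and gene lists were chosen with earlier results of these data known. All 44 members were accounted for; values in every sample were given for members past the threshold, at most 8 a comparison, and for 9 members whatever their result. Samples of an animal share its number, and the labels pair them across days. Correlations of their deviations from group means were -0.15 to 0.28, and 5 of 10 animals matched themselves best. The number of arrays limits the precision. One title with a shortened animal name was read by its number. Alternatives were normexp background correction, quantile normalization, median centring, the authors' table, other filters, slide, scan day or animal as a block, a mean over a gene's probes (for the medians over members) and leaving out each animal. The fit was tested on simulated data.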

Additional observations from a re-analysis of the deposited data

Results flagged for a closer look

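In 5 of 172 groups of 5 animals, 1 animal lay far from the others, by a gap beyond Dixon's 95% critical value of 0.71 of the group's range. Chance flags about 1 in 20 groups. ACADS in control animals at day 0 was lowest in K10, at 11.75, with the others at 13.39 to 13.69. ECI1 in treated animals at day 0 was lowest in DE29, at 11.75, with the others at 12.09 to 12.20, and at day 14 lowest in DE31, at 11.39, with the others at 12.22 to 12.43. HSD17B4 in control animals at day 0 was highest in K10, at 11.51, with the others at 10.81 to 10.94. PPARGC1A in treated animals at day 0 was lowest in DE30, at 9.90, with the others at 12.47 to 13.21.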

How the results depend on the processing

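Of the summary values, 274 were counted as unmoved under the alternatives, and 41 as moved. A count was unmoved within a factor of 1.5, and a median within 0.327 log2 units whatever its sign. The median difference in storage change, -0.07 in the main fit, thus counted as unmoved at 0.05 without K8, 0.03 without K10 and 0.09 without DE31. The count of members that rose at day 0 was 10 with normexp, 11 with probes above background on all arrays and 2 with the animal as a random replicate block over all arrays, and over both days it was 3 with normexp. In storage of controls, members that rose were 3 with normexp, 0 with quantile normalization, median centring, the authors' table or the slide as a block, 2 with the all-array filter and 2 with the animal as a replicate block, and 1 fell with the slide as a block. In storage of treated animals, 14 fell and 3 rose with normexp, 15 fell with median centring, 0 fell with the slide as a block, and 1 rose with no filter, with the all-array filter or with scan day as a block. With the animal as a replicate block, 9 members fell in controls and 6 in treated animals, and no call of a member other than those given above changed. Reversed signs were HADHB at 0.23 and EHHADH at 0.028 in controls and 0.13 and 0.58 in treated animals with normexp, and ACADM at 0.072 in controls with the slide as a block; the cause was not tested. Without each animal in turn, members that rose were 1 to 7 at day 0, 0 to 0 at day 14 and 1 to 6 over both days, with medians of 0.41 to 0.47, 0.19 to 0.50 and 0.32 to 0.48, and probes called were 135 to 312, 0 to 12 and 215 to 538. For storage, members that fell were 4 to 11 and 2 to 14, members that rose 0 to 2 and 0 to 1, medians -0.27 to -0.21 and -0.50 to -0.21, and probes called 3221 to 6652 and 2434 to 5703, in control and treated animals. The median difference in storage change ran from -0.25 to 0.09. Among single members, 165 values kept their sign but no longer passed, the 5 values with reversed sign did not pass either, and 18 newly passed. Signal near background limits EHHADH, ETFDH, ACSL6, HADHB, ACAT1 and PPARA, which were not above background on every array.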
